A study of Homo sapiens with 12 samples.

Results

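IFI6, IFI27, IFI27L1, IFI27L2, IFI35, NMI, IFI44 and IFI44L were followed through 12 RNA sequencing libraries of lymphoma cells. They were chosen by gene symbol from the expression table. The only measured value in the rule is the highest mean level over the 12 libraries, which picks among several primary-chromosome rows of a symbol, and as each symbol had 1 row it chose nothing. The 8 genes stand among 63129 in the table and among 18731 that reached at least 1 FPKM in at least 2 libraries; all 8 passed that filter. FPKM, the unit of every level here, is fragments scaled to transcript length and to the mapped fragments of the library, so levels can be set side by side between genes. IFI44 and IFI44L passed the filter through KARPAS-422, RL and 1 Pfeiffer library, and both lay below 1 FPKM in the other 3 Pfeiffer libraries.

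The cells were 3 human lines, KARPAS-422, Pfeiffer and RL, from diffuse large B-cell lymphoma of the germinal centre type. All carry mutant EZH2 that is more active, the mutation lying in its SET domain, so no group here is free of it. EZH2 is the histone H3 lysine methyltransferase of the polycomb complex PRC2. KARPAS-422 received 1.5 µM CPI-169 (n = 3) or 0.1% DMSO (n = 3), Pfeiffer received 1.5 µM GSK343 (n = 2) or 0.1% DMSO (n = 2), and RL, described as not responding, received 0.1% DMSO only (n = 2). CPI-169 and GSK343 both inhibit the catalytic activity of EZH2, and all cells were collected after 4 days. The 2 responsive lines ask which transcripts change when EZH2 is inhibited, and RL gives the baseline of a non-responsive line. Each type of response is represented by 1 or 2 lines, and each compound was given to 1 line, so that line, compound and library series cannot be told apart. Whether replicates were separate cultures is not stated, and the p-values describe the scatter of these libraries, possibly a technical one. In bulk RNA, fewer cells making a transcript and less of it per cell cannot be told apart.

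Type I interferons bind the receptor IFNAR, and the kinases JAK1 and TYK2 then activate the transcription factor complex ISGF3, which holds STAT2 and IRF9. ISGF3 binds the interferon-stimulated response element (ISRE), and the response to type II interferon uses the gamma-activated sequence (GAS). IFI6, IFI27, IFI27L1 and IFI27L2 belong to the small FAM14 (ISG12) family of hydrophobic membrane proteins; IFI6 is known to protect cells from flavivirus replication, and IFI27 is widely used as a blood marker of interferon exposure. IFI35 and NMI encode interferon-induced proteins that bind each other through their NID domains. IFI44 and IFI44L are neighbouring, related genes that type I interferon induces strongly.

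The libraries had FPKM sums of 371965 to 630387 and 13974 to 16357 genes at 1 FPKM or more, and absolute depth is unknown because no read counts are given. The GSK343 libraries stood further apart than any other replicates, with a root mean square log2 difference of 0.497 over all tested genes, against 0.185 between the Pfeiffer DMSO libraries and 0.164 to 0.245 within the other groups. The GSK343 differences of the 8 genes are therefore also given without each GSK343 library, as are those of several other genes and lists. Such a fit leaves 1 GSK343 library, so its spread comes from the other groups. Its p-values and calls do not measure scatter between GSK343 libraries. The same limit holds where 1 Pfeiffer DMSO or RL library is left out. The B cell markers MS4A1, CD79A, CD79B, PAX5, CD22 and BCL6 were above 1 FPKM in every library. Their summed level was 1577 to 1683 FPKM with CPI-169, against 1819 to 1980 with DMSO, with MS4A1 higher and CD79A and PAX5 lower by limma. It was 2307 to 2576 FPKM with GSK343, against 2675 to 2735 with DMSO, with 0 of the 6 passing by limma and 0 at an unadjusted p under 0.05. The sum hides a split between GSK343 replicates 1 and 2. BCL6 was at 92.3 and 268 FPKM there, against 106 and 109 with DMSO. CD22 was at 25.1 and 67.6 FPKM, against 31.5 and 29.7, and MS4A1 at 985 and 588 FPKM, against 993 and 905. The part of these marker shifts in the results was not tested. None of 8 myeloid and plasmacytoid dendritic cell markers reached 1 FPKM in any library. EZH2 itself was at 41.5, 40.4 and 41.1 FPKM with CPI-169, against 44.4, 48.7 and 49.1 with DMSO, and did not pass (log2 difference −0.20; limma, Benjamini-Hochberg adjusted p = 0.175). It was at 13.8 and 20.9 FPKM with GSK343, against 31.6 and 30.8 with DMSO (log2 difference −0.84, limma, Benjamini-Hochberg adjusted p = 0.00169). The difference was −0.56 without GSK343 replicate 1 and −1.12 without replicate 2.

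The 8 promoters fall into those with ISRE-like letters and those without, and the stretches that carry the matches are shown for that reason. The windows searched were those of RefSeq on GRCh38.p14, 250 bases before to 50 after each start; all 8 genes matched, IFI27 and IFI44 with 2 start sites each. The ISRE core was spelled as GAAA, any 2 bases and GAAA again, and the GAS core as TTCNNNGAA, both searched on both strands. Of 35116 windows in the table, 3.57% hold the ISRE core, 0.259% hold at least 2 and 7.66% hold the GAS core. Capitals mark ISRE core matches in the first 5 stretches, where TTTC letters stand for a match on the other strand, and the GAS core match in that of IFI35.
IFI6: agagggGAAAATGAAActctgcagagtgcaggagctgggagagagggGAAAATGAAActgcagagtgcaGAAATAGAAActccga
IFI27: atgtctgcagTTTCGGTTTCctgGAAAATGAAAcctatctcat
IFI44: gcacactgagTTTCAGTTTCctttctct
IFI44L: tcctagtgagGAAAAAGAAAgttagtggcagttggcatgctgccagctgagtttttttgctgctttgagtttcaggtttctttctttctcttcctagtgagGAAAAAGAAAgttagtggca
NMI: aaagcagtTTTCTTTTTCactgtctt
IFI35: aggcagggatTTCACGGAAatgaaagtgg
These lie at chr1:27672270-27672354 (minus strand) for IFI6, chr14:94110618-94110660 (plus) for IFI27, chr1:78649761-78649788 (plus) for IFI44, chr1:78620274-78620394 (plus) for IFI44L, chr2:151289814-151289839 (minus) for NMI and chr17:43006752-43006780 (plus) for IFI35. Counting upstream bases as negative from the RefSeq start, the window of IFI6 has 3 ISRE cores, at −156, −115 and −93, and the first and second sit in a 29-base stretch that is repeated 41 bases on. IFI44L has 2 identical cores, at −164 and −73, inside an 85-base repeat offset by 91 bases. IFI27 has 2 cores facing opposite ways, at −108 and −95 in its first RefSeq entry, with a GAS core at −101 that overlaps both. IFI44 has 1 core at −18 in its first entry, and NMI has 1 core at −163 and a GAS core at position 19. By the GENCODE 29 annotation, transcripts of NMI, IFI35 and IFI44L also begin upstream of these RefSeq starts: all 26 bases of the NMI stretch, all 29 of the IFI35 stretch and 13 of the 121 of the IFI44L stretch lie in exons of those genes.

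IFI27L1 and IFI27L2 hold neither core in these windows, and IFI35 holds the GAS core only, at −22. The windows of IFI27L1 and IFI27L2 are rich in CpG, as the following stretches show, with each CpG in capitals.
IFI27L1: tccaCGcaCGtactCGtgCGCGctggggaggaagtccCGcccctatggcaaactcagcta
IFI27L2: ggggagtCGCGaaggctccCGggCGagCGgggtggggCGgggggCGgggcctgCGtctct
They lie at chr14:94081222-94081281 (plus strand) and chr14:94129665-94129724 (minus strand). IFI27L1 has 25 CpGs in its window and IFI27L2 has 21, while IFI44 and IFI44L have 0, against a median of 14 over all windows, of which 3.96% have 0. IFI27 has 4 in its first entry, IFI35 has 8, IFI6 has 9 and NMI has 19. A match of letters is not a measured binding site, and the absence of a match covers only these letters in this window.

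**Figure D1:**
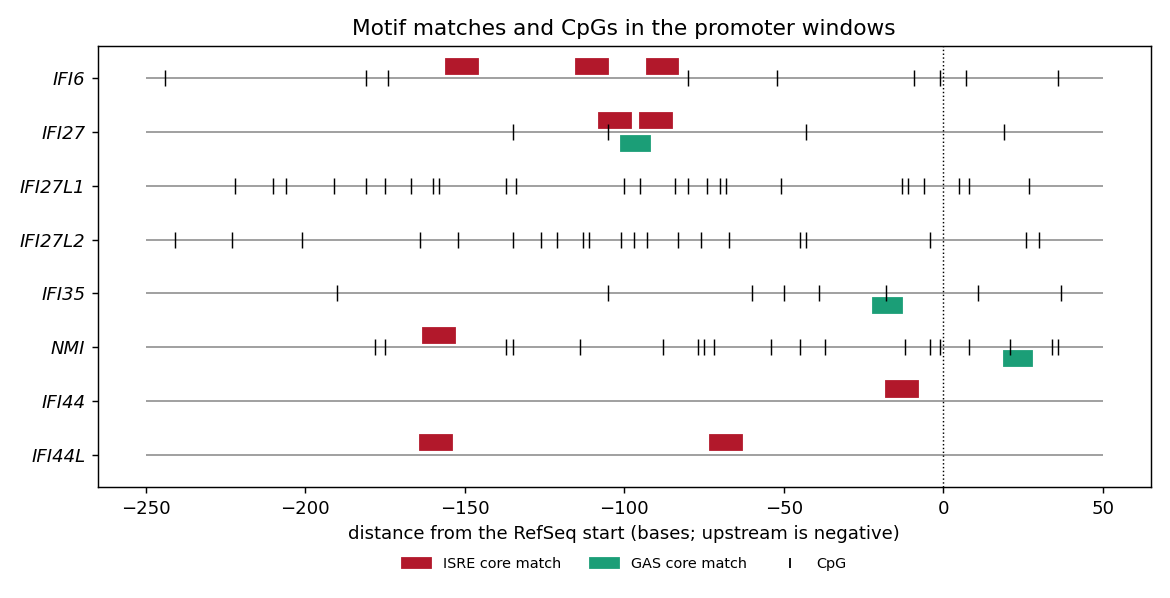
Positions of ISRE core matches (red boxes, above the line), GAS core matches (green boxes, below the line) and CpGs (ticks) in the promoter window of each gene, in bases from the RefSeq start (negative is upstream), using the first RefSeq entry of each gene. IFI6 has 3 ISRE cores, IFI27 and IFI44L have 2 each, and the windows of IFI27L1 and IFI27L2 have 25 and 21 CpGs and neither core.

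With CPI-169, all 8 genes were higher in KARPAS-422, where 26.9% of all tested genes were called higher and 54.2% were called in either direction. The median log2 difference over all tested genes was 0.01. The treated and DMSO libraries did not overlap for any of the 8, but the share of all tested genes without overlap was not counted. Fold sizes ran from 1.52 for IFI27L1 to 14.7 for IFI6 as ratios of mean FPKM.

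Among the FAM14 genes, IFI6 (ENSG00000126709; hg19 chr1:27992571-27998729) was at 513, 469 and 568 FPKM with CPI-169, against 29.4, 38.4 and 38.0 with DMSO. The lowest treated library lay above the highest DMSO library by more than the whole spread within either group, and the means were 517 ± 49.7 and 35.3 ± 5.06 FPKM (SD, n = 3 each). The log2 difference on the log2(FPKM + 1) scale was 3.84 (SE 0.291; limma, Benjamini-Hochberg adjusted p = 1.88e-06), the 12th highest of 18731 genes. By level, IFI6 ranked 31st among the tested genes with CPI-169 and 3065th with DMSO. IFI27 (ENSG00000165949; hg19 chr14:94571181-94583033) was at 38.0, 28.5 and 38.0 FPKM with CPI-169, against 2.08, 2.48 and 2.89 with DMSO. It was 14.0 times higher by mean, close to the ratio of IFI6, and its level stayed far below that of IFI6 in both groups: the IFI6 to IFI27 ratio was 13.5, 16.5 and 15.0 with CPI-169, against 14.2, 15.5 and 13.2 with DMSO, and these ranges overlap. The log2 difference of IFI27 was 3.36 (SE 0.639; limma, Benjamini-Hochberg adjusted p = 0.0011).

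IFI27L1 and IFI27L2, which flank IFI27 on chromosome 14, moved much less. IFI27L1 (ENSG00000165948; hg19 chr14:94547627-94570192), whose locus ends 989 bases from that of IFI27, was at 21.9, 18.8 and 24.0 FPKM with CPI-169, against 12.4, 15.1 and 15.1 with DMSO. Its log2 difference was 0.57 (SE 0.124; limma, Benjamini-Hochberg adjusted p = 0.00268). IFI27L2 (ENSG00000119632; hg19 chr14:94594115-94596590), 11082 bases beyond IFI27, was at 64.5, 42.0 and 65.0 FPKM with CPI-169, against 23.6, 33.0 and 34.9 with DMSO. Replicate 2 was the lowest of the CPI-169 libraries for both genes, and still lay above every DMSO library. The log2 difference of IFI27L2 was 0.88 (SE 0.185; limma, Benjamini-Hochberg adjusted p = 0.00213).

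The NMI and IFI35 pair rose together, IFI35 the more. IFI35 (ENSG00000068079; hg19 chr17:41158741-41166473) was at 84.2, 70.5 and 83.9 FPKM with CPI-169, against 9.08, 8.80 and 8.70 with DMSO. Its log2 difference was 3.03 (SE 0.118; limma, Benjamini-Hochberg adjusted p = 2.73e-08), the smallest adjusted p of the 8. NMI (ENSG00000123609; hg19 chr2:152126978-152146571) was at 22.9, 20.6 and 22.8 FPKM with CPI-169, against 5.53, 6.45 and 7.19 with DMSO. Its log2 difference was 1.65 (SE 0.0982; limma, Benjamini-Hochberg adjusted p = 3.88e-07), and treated and DMSO libraries were well separated for both genes. The IFI35 to NMI level ratio was 3.68, 3.43 and 3.68 with CPI-169, against 1.64, 1.37 and 1.21 with DMSO, and these ranges do not overlap.

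IFI44 and IFI44L, 6996 bases apart on chromosome 1, were already well expressed with DMSO. IFI44 (ENSG00000137965; hg19 chr1:79115480-79129763) was at 471, 420 and 491 FPKM with CPI-169, against 70.6, 100.3 and 93.1 with DMSO. IFI44L (ENSG00000137959; hg19 chr1:79085606-79108484) was at 120.1, 119.9 and 121.4 FPKM with CPI-169, against 18.4, 22.3 and 20.7 with DMSO. The 3 treated IFI44L libraries had an SD of 0.803 FPKM around a mean of 120.4. Log2 differences were 2.39 for IFI44 (SE 0.551) and 2.50 for IFI44L (SE 0.506), with adjusted p of 0.00372 and 0.00163 by limma with Benjamini-Hochberg adjustment. The standard errors of IFI27, IFI44 and IFI44L are large beside the spread of their KARPAS-422 libraries; the spread in the fit is estimated from all 5 groups at once, the widely split GSK343 pair included. The IFI44 to IFI44L ratio was 3.92, 3.51 and 4.04 with CPI-169, against 3.84, 4.49 and 4.50 with DMSO, so the pair kept an overlapping ratio of levels.

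**Figure D2:**
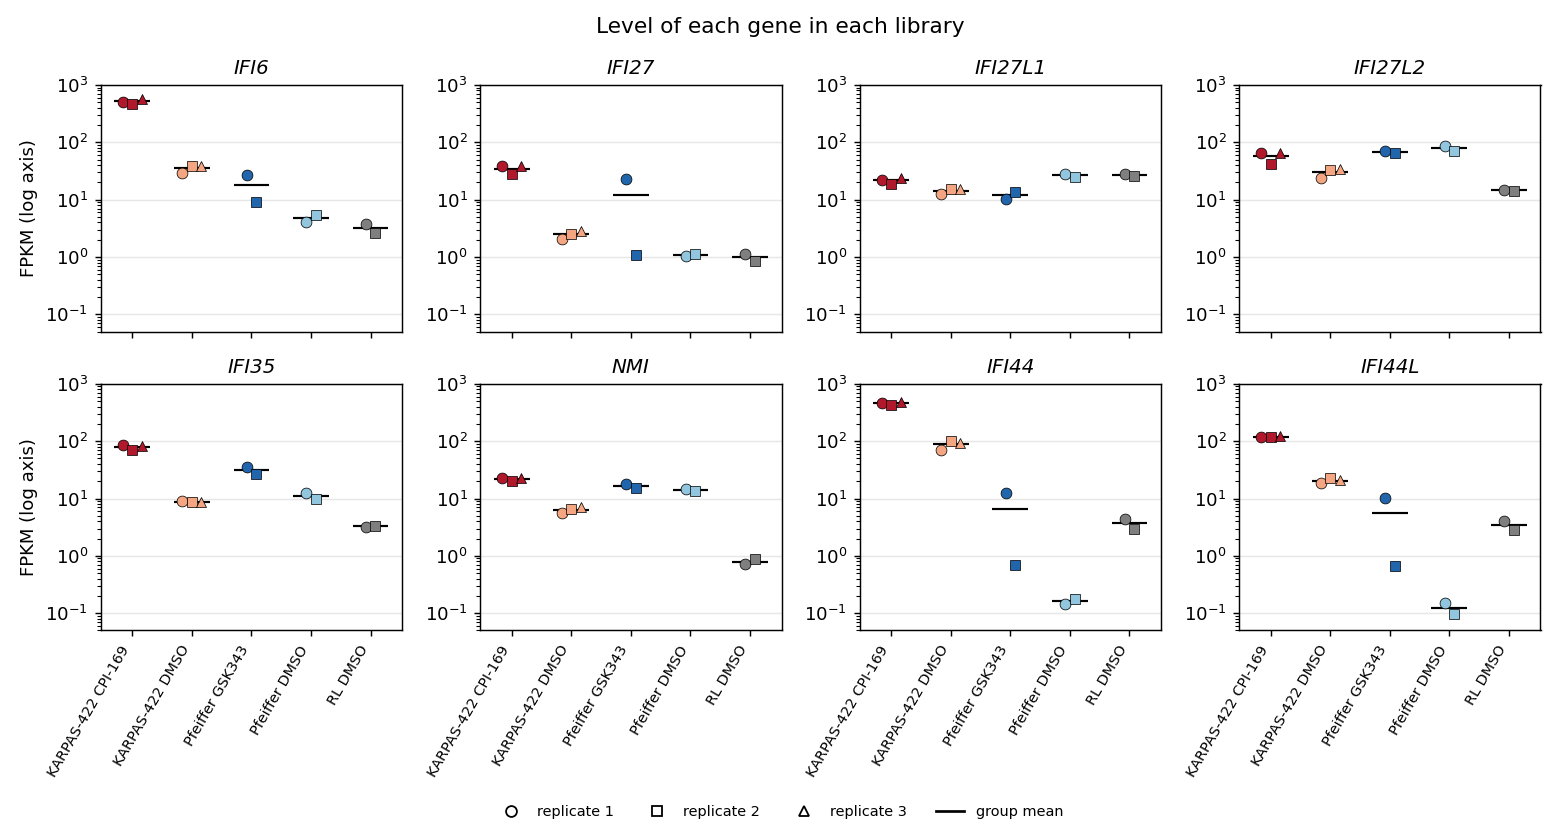
FPKM (log axis) of the 8 genes in each of the 12 libraries, by group; symbols are replicates and the bar is the group mean. IFI6 lies at 469 to 568 FPKM in the CPI-169 libraries and at 29.4 to 38.4 in KARPAS-422 DMSO, and the GSK343 libraries split widely for IFI27 (22.6 and 1.08 FPKM), IFI44 and IFI44L.

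In Pfeiffer, GSK343 was accompanied by 4 called increases and 1 called decrease among the 8, where 12% of all tested genes were called higher and 17.5% lower (29.5% in all). IFI6, IFI35, IFI44 and IFI44L rose, IFI27L1 fell, and IFI27, IFI27L2 and NMI did not pass. The 2 treated libraries differed in size for most of the genes, with a median log2 difference from the DMSO mean over the 8 of 1.96 in replicate 1 and 0.34 in replicate 2. For 60 other interferon-stimulated genes these medians were 1.14 and 0.21, and for all tested genes −0.08 and 0. Leaving out either treated library leaves 1, so calls from those fits are not used here. With no filter on low values 2 of the 8 were higher. With the 4 Pfeiffer libraries fitted alone none of the 8 passed by limma, 2 higher and 1 lower having an unadjusted p under 0.05.

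IFI35 was at 36.1 and 27.2 FPKM with GSK343, against 12.3 and 9.67 with DMSO. Both treated libraries lay above both of the DMSO libraries, and the log2 difference was 1.44 (SE 0.144; limma, Benjamini-Hochberg adjusted p = 5.84e-05). It was 1.25 without replicate 1 and 1.64 without replicate 2. Its partner NMI was at 17.6 and 15.3 FPKM with GSK343, against 14.4 and 13.5 with DMSO. The NMI groups did not overlap, but the difference of 0.22 did not pass (95% interval −0.05 to 0.49, limma, Benjamini-Hochberg adjusted p = 0.198). That difference was 0.13 without replicate 1 and 0.31 without replicate 2. The IFI35 to NMI ratio was 2.06 and 1.78 with GSK343, against 0.851 and 0.719 with DMSO.

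IFI6 was at 26.6 and 9.25 FPKM with GSK343, against 4.13 and 5.33 with DMSO. Both treated libraries were above both DMSO libraries, replicate 1 by 5.62 times the DMSO mean and replicate 2 by 1.95 times. The log2 difference was 1.56 (SE 0.357; limma, Benjamini-Hochberg adjusted p = 0.00847). It was 0.85 without GSK343 replicate 1, 2.28 without replicate 2 and 1.41 without Pfeiffer DMSO replicate 1. With the lines fitted alone it did not pass (limma, Benjamini-Hochberg adjusted p = 0.174). IFI27 was at 22.6 and 1.08 FPKM with GSK343, against 1.02 and 1.11 with DMSO. Replicate 1 stood at 21.2 times the DMSO mean, while replicate 2 lay between the DMSO libraries, and the log2 difference of 1.76 did not pass (95% interval 0.03 to 3.50; limma, Benjamini-Hochberg adjusted p = 0.116). Without replicate 2 it was 3.52 and without replicate 1 it was 0.01.

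The neighbours of IFI27 did not follow it in Pfeiffer. IFI27L1 was at 10.2 and 13.5 FPKM with GSK343, against 28.4 and 25.0 with DMSO, and was lower in both treated libraries. Its log2 difference was −1.12 (SE 0.152, limma, Benjamini-Hochberg adjusted p = 0.000405), and it was −0.94 and −1.31 without replicate 1 and replicate 2. IFI27L2 was at 71.5 and 65.1 FPKM with GSK343, against 87.7 and 69.1 with DMSO, with overlapping ranges. Its difference of −0.19 did not pass (95% interval −0.69 to 0.31, limma, Benjamini-Hochberg adjusted p = 0.573). Without replicate 1 and replicate 2 the difference was −0.26 and −0.12. In replicate 1, IFI27 and IFI27L1 thus lay on opposite sides of their DMSO libraries although their loci are 989 bases apart.

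IFI44 was at 12.4 and 0.703 FPKM with GSK343, against 0.146 and 0.180 with DMSO. IFI44L was at 10.3 and 0.658 FPKM with GSK343, against 0.150 and 0.0978 with DMSO. For both genes each treated library lay above both DMSO libraries, at 76.2 and 4.31 times the DMSO mean for IFI44 and at 83.2 and 5.31 times for IFI44L. The log2 differences of 2.04 and 1.95 understate these ratios because of the added 1, and they passed narrowly (limma, Benjamini-Hochberg adjusted p = 0.0439 and 0.038). Leaving out any 1 KARPAS-422 library ended both calls. The limma adjusted p (Benjamini-Hochberg) was then 0.0548 to 0.0625 for IFI44 and 0.0501 to 0.0553 for IFI44L. With the lines fitted alone it was 0.306 and 0.297. The log2 differences were 0.55 and 0.56 without GSK343 replicate 1, and 3.53 and 3.33 without replicate 2. The IFI44 to IFI44L ratio was 1.21 and 1.07 with GSK343, against 0.973 and 1.84 with DMSO, where both levels are near the bottom of the scale.

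**Figure D3:**
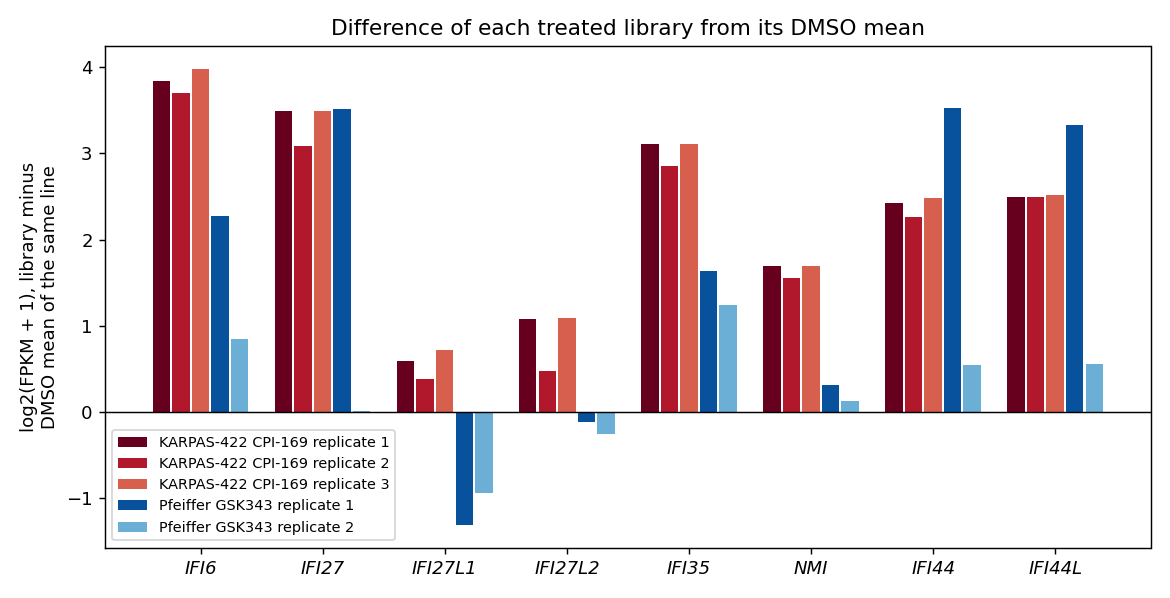
Difference of each treated library from the DMSO mean of its own line, on the log2(FPKM + 1) scale, with bars for the 3 CPI-169 libraries (reds) and the 2 GSK343 libraries (blues). The CPI-169 bars lie above 0 for every gene, while GSK343 replicate 1 exceeds replicate 2 for IFI6, IFI27, IFI44 and IFI44L, and both GSK343 bars of IFI27L1 lie below 0.

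The responses of the 2 lines were then compared as CPI-169 minus DMSO in KARPAS-422 less GSK343 minus DMSO in Pfeiffer. Of the 8 genes, 5 passed, all with the larger value in KARPAS-422, where 23.8% of all tested genes passed in that direction and 42.6% in either. The difference was 2.28 for IFI6 (adjusted p = 0.00279), 1.69 for IFI27L1 (adjusted p = 0.000105), 1.07 for IFI27L2 (adjusted p = 0.014), 1.58 for IFI35 (adjusted p = 0.000112) and 1.43 for NMI (adjusted p = 7.25e-05), by limma with Benjamini-Hochberg adjustment. For IFI27L1 the lines moved in opposite directions, since it rose in KARPAS-422 and fell in Pfeiffer. IFI27 (1.59, 95% interval −0.64 to 3.83), IFI44 (0.35, −1.58 to 2.28) and IFI44L (0.56, −1.22 to 2.33) did not pass. Those 3 turned on 1 library. Without GSK343 replicate 1 the differences were 3.35 for IFI27, 1.84 for IFI44 and 1.94 for IFI44L. Without replicate 2 they were −0.16 for IFI27, −1.14 for IFI44 and −0.83 for IFI44L. With a pseudocount of 0.1 in place of 1 the difference was −1.19 for IFI44 and −1.10 for IFI44L, neither passing. IFI27L2 did not pass without Pfeiffer DMSO replicate 1 (0.90; limma, Benjamini-Hochberg adjusted p = 0.0704, with a range of 0.00277 to 0.0704 over the alternatives).

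**Figure D4:**
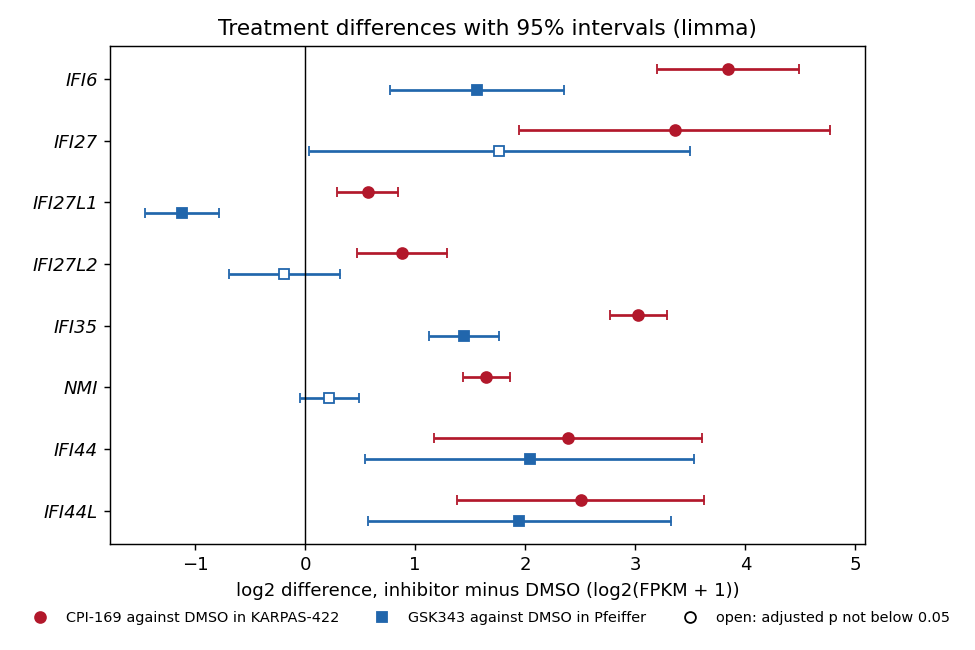
Log2 differences on the log2(FPKM + 1) scale with 95% intervals for CPI-169 against DMSO in KARPAS-422 (red circles) and GSK343 against DMSO in Pfeiffer (blue squares); open symbols did not pass an adjusted p of 0.05. All 8 circles lie above 0, from 0.57 to 3.84, and the blue squares run from −1.12 for IFI27L1 to 2.04 for IFI44.

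Other genes of the pathway, from a list assembled with earlier results of these data known, were mostly higher with CPI-169. Of 60 other interferon-stimulated genes tested, 53 were higher and 0 lower with CPI-169 by limma, and 56 had an unadjusted p under 0.05, with a median log2 difference of 1.51, against 0.01 over all tested genes. The highest were IFIT1, which binds viral RNA, at 4.51, XAF1, a pro-apoptotic partner of XIAP, at 4.32 and IFIT3, which stabilises IFIT1, at 3.63. The lowest were the helicase gene ZNFX1 at 0.24, which still passed, the exonuclease gene ISG20 at 0.05 and the ADP-ribosyltransferase gene PARP9 at 0.04. In Pfeiffer, 27 of the 60 were higher and 1 lower with GSK343, with a median of 0.75, against −0.03 over all tested genes. The median was 0.21 without GSK343 replicate 1 and 1.14 without replicate 2. With Pfeiffer fitted alone 0 of the 60 passed by limma, 19 higher and 1 lower having an unadjusted p under 0.05. The highest there were ISG15 at 1.97 and MX1 at 1.72, which did not pass (limma, Benjamini-Hochberg adjusted p = 0.0501 and 0.0564), and EPSTI1 at 1.66, which passed (0.0476). These 3 were at 0.49, 0.37 and 0.42 without GSK343 replicate 1, and at 3.46, 3.07 and 2.90 without replicate 2. The lowest were GBP3 at 0.05 and SAMHD1 at −0.04, which did not pass, and TRIM14, which was lower at −0.38 (limma, Benjamini-Hochberg adjusted p = 0.0139). Without GSK343 replicate 1 and replicate 2, TRIM14 was at −0.39 and −0.36, and SAMHD1 at −0.31 and 0.22.

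**Figure D5:**
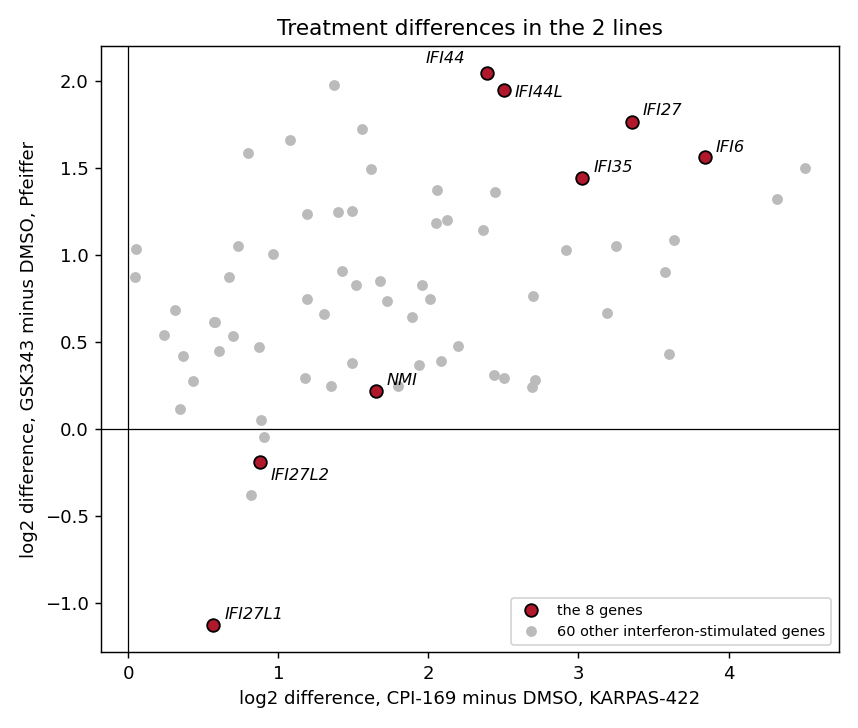
Log2 difference of each gene with CPI-169 in KARPAS-422 (x axis) and with GSK343 in Pfeiffer (y axis), both on the log2(FPKM + 1) scale and with separate DMSO libraries, for the 8 genes (red, labelled) and 60 other interferon-stimulated genes (grey). IFI6 and IFI27 lie at 3.84 and 3.36 on the x axis, and IFI27L1 and IFI27L2 are the labelled genes below 0 on the y axis.

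Transcription factors of the interferon pathway were measured in the same libraries. IRF7 split between the GSK343 replicates in the same direction as IFI27, IFI44 and IFI44L, at 45.6 and 7.86 FPKM with GSK343, against 6.45 and 5.18 with DMSO. The log2 difference of IRF7 in Pfeiffer was 1.58 and passed narrowly (limma, Benjamini-Hochberg adjusted p = 0.0486). It was 0.39 without GSK343 replicate 1 and 2.78 without replicate 2. STAT2 did not split: it was at 44.0 and 38.7 FPKM with GSK343, against 26.3 and 25.9 with DMSO, and rose in both lines (log2 differences 1.89 in KARPAS-422 and 0.64 in Pfeiffer; limma, Benjamini-Hochberg adjusted p = 2.13e-08 and 0.000366). IRF9, the DNA-binding subunit of ISGF3, rose by 0.73 in KARPAS-422 and by 1.05 in Pfeiffer (limma, Benjamini-Hochberg adjusted p = 0.00438 and 0.0043). Its GSK343 replicates also stood apart, at 54.7 and 29.9 FPKM, both above the 18.3 and 19.8 with DMSO. IRF1 and IRF8 rose with CPI-169 by 1.00 and 0.62 and did not pass with GSK343 (0.36 and −0.09), while IRF3 fell by 0.96 with CPI-169 and was 0.04 higher, without passing, with GSK343. Of 16 interferon signalling and transcription factor genes, CPI-169 had 11 higher and 3 lower, and GSK343 had 6 higher and 0 lower. Without GSK343 replicate 1 and replicate 2, STAT2 was at 0.55 and 0.73 and IRF9 at 0.63 and 1.48. In the same fits IRF1 was at 0.16 and 0.56, and IRF8 at 0.29 and −0.47.

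Interferon genes themselves were at the bottom of the scale. Of 24 symbols listed, 21 were found, none reached 1 FPKM, and the highest value in any library was 0.508 FPKM. Their summed level was 0.388 to 0.830 FPKM with CPI-169, against 0.174 to 0.300 with DMSO, and 0.234 to 0.436 with GSK343, against 0.282 to 0.443 with DMSO. Markers of other cell types also moved beside the 8 genes, and their part in these results was not tested. The summed level of 10 T and NK cell markers was 56.3 to 63.0 FPKM with CPI-169, against 35.6 to 37.3 with DMSO. Most of it was CD3G, with CD2 and KLRD1 listed at 0 in all 6 KARPAS-422 libraries. NKG7 and NCAM1 passed the filter only through the CPI-169 libraries, so calls of this list with CPI-169 are not counted. In Pfeiffer the same sum was 299 to 398 FPKM with GSK343, against 412 to 413 with DMSO, most of it CD8A. There 0 of 6 tested markers passed with limma (1 at an unadjusted p under 0.05). Summed epithelial and stromal markers, led by EPCAM, were at 58.2 to 80.9 FPKM with GSK343, against 141 to 142 with DMSO. Of 5 tested, PDGFRB passed the filter only through the GSK343 libraries, so calls of this list are not counted. EPCAM was at 49.8 and 66.7 FPKM with GSK343, against 134 and 135 with DMSO. COL1A1 was at 2.02 and 4.20 FPKM, against 1.04 and 1.23, and KRT18 at 4.06 and 5.26, against 2.75 and 3.22. KRT8 was at 1.16 and 3.02 FPKM, against 1.95 and 1.87. Myeloid and plasmacytoid dendritic cell markers summed to 0.712 to 0.977 FPKM with CPI-169, against 0.275 to 0.331 with DMSO.

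At baseline some of the 8 genes differed widely between the 3 lines, while others differed little in some of the comparisons. In RL, 6 of the 8 were lower than in KARPAS-422 DMSO and 1 was higher, where 33.2% of all tested genes were lower, 33.6% higher and 66.8% called in all. IFI44 was at 4.44 and 2.92 FPKM in RL, against 70.6, 100.3 and 93.1 in KARPAS-422 DMSO (log2 difference −4.25; limma, Benjamini-Hochberg adjusted p = 9.87e-05). IFI6 was at 3.83 and 2.58 FPKM in RL, against 29.4, 38.4 and 38.0 in KARPAS-422 DMSO (log2 difference −3.11; limma, Benjamini-Hochberg adjusted p = 7.52e-06). NMI was at 0.707 and 0.869 FPKM in RL, against 5.53, 6.45 and 7.19 in KARPAS-422 DMSO (log2 difference −2.04; limma, Benjamini-Hochberg adjusted p = 3.86e-08). In each of these 3 genes every RL library lay below every KARPAS-422 DMSO library. IFI44L (−2.29), IFI35 (−1.21) and IFI27L2 (−1.01) were also lower in RL, IFI27L1 was higher (0.87), and IFI27 did not pass (−0.80, 95% interval −2.38 to 0.78).

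Set against Pfeiffer DMSO, RL had 2 of the 8 higher and 3 lower, where 35.6% of all tested genes were higher, 38.7% lower and 74.3% called in all. NMI was again lower, at 0.707 and 0.869 FPKM in RL, against 14.4 and 13.5 in Pfeiffer DMSO (log2 difference −3.06; limma, Benjamini-Hochberg adjusted p = 2.77e-09). IFI27L2 was at 14.9 and 14.0 FPKM in RL, against 87.7 and 69.1 in Pfeiffer DMSO (log2 difference −2.35; limma, Benjamini-Hochberg adjusted p = 3.41e-06). IFI35 was at 3.19 and 3.33 FPKM in RL, against 12.3 and 9.67 in Pfeiffer DMSO (log2 difference −1.48; limma, Benjamini-Hochberg adjusted p = 3.64e-06). None of these ranges overlapped. IFI44 and IFI44L were higher in RL by 1.99 and 1.96 (limma, Benjamini-Hochberg adjusted p = 0.0203 and 0.0143), calls that were lost without Pfeiffer DMSO replicate 1, Pfeiffer DMSO replicate 2 or RL replicate 1 (limma, Benjamini-Hochberg adjusted p = 0.0697 to 0.103 for IFI44 and 0.054 to 0.0798 for IFI44L, the lowest over all alternatives being 4.58e-06 and 4.41e-07). IFI6 (−0.45, 95% interval −1.24 to 0.34), IFI27 (−0.05, −1.78 to 1.68) and IFI27L1 (0.01, −0.33 to 0.34) did not pass.

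Between the DMSO libraries of the responsive lines, KARPAS-422 had 3 of the 8 higher than Pfeiffer and 3 lower, where 39.8% of all tested genes were higher, 43.2% lower and 83% called in all. IFI44, IFI44L and IFI6 were higher in KARPAS-422, by 6.24, 4.25 and 2.66 on the log2 scale. The mean of IFI44 was 88.0 ± 15.5 FPKM in KARPAS-422 DMSO (SD, n = 3) and 0.163 ± 0.0242 FPKM in Pfeiffer DMSO (SD, n = 2), a ratio of 539. IFI27L2, NMI and IFI27L1 were lower in KARPAS-422, at −1.34, −1.02 and −0.87 on that scale, with limma adjusted p (Benjamini-Hochberg) of 0.000102, 5.51e-06 and 0.000139. IFI35 (−0.27) and IFI27 (0.75) did not pass. The 3 baseline comparisons share their DMSO libraries with each other and with the treatment comparisons.

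The order of the group means sorted the genes. IFI6 was highest in CPI-169-treated KARPAS-422, then KARPAS-422 DMSO, GSK343-treated Pfeiffer, Pfeiffer DMSO and RL, with no overlap between neighbours in that order. IFI35 and NMI shared another order, CPI-169-treated KARPAS-422, GSK343-treated Pfeiffer, Pfeiffer DMSO, KARPAS-422 DMSO and RL, again with no overlap between neighbours. For IFI44 and IFI44L the order was CPI-169-treated KARPAS-422, KARPAS-422 DMSO, GSK343-treated Pfeiffer, RL and Pfeiffer DMSO, and the GSK343 and RL ranges overlapped. IFI27 was highest in CPI-169-treated KARPAS-422 and then in GSK343-treated Pfeiffer, whose range overlapped that of KARPAS-422 DMSO, and the ranges of Pfeiffer DMSO and RL overlapped below them. IFI27L1 was highest in RL and Pfeiffer DMSO, which overlapped, followed by CPI-169-treated KARPAS-422, then KARPAS-422 DMSO and GSK343-treated Pfeiffer, which overlapped. IFI27L2 was highest in Pfeiffer DMSO and GSK343-treated Pfeiffer, which overlapped, then in CPI-169-treated KARPAS-422, KARPAS-422 DMSO and RL.

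Genes next to the 8 loci were read for comparison. RBM43, whose locus lies 8585 bases from NMI, moved as NMI did in KARPAS-422, at 9.50, 9.31 and 10.1 FPKM with CPI-169, against 2.95, 3.25 and 3.53 with DMSO (log2 difference 1.33; limma, Benjamini-Hochberg adjusted p = 5.44e-07). It also rose by 0.35 with GSK343 (limma, Benjamini-Hochberg adjusted p = 0.0248), and was at 0.0274 and 0.0354 FPKM in RL, where NMI too was lowest. Between the DMSO libraries of KARPAS-422 and Pfeiffer the 2 genes differed in direction, RBM43 being higher in KARPAS-422 (0.86) and NMI lower (−1.02). RP11-288L9.4, whose locus overlaps that of IFI6, was at 4.86, 6.02 and 6.54 FPKM with CPI-169, against 0.399, 0.352 and 0.121 with DMSO. It was below 1 FPKM in all 9 other libraries and passed the filter only through the CPI-169 libraries, so no test is given for it. Strand handling is not given, so its reads and those of IFI6 cannot be told apart. DDX24, 36 bases from the other end of IFI27L1, differed by 0.11 with CPI-169 and by −0.05 with GSK343. VAT1, 148 bases from IFI35, differed by 0.38 with CPI-169 and by −0.12 with GSK343, against 3.03 and 1.44 for IFI35. RPL27, a ribosomal protein gene on its other side, differed by 0.41 with CPI-169 and by −0.07 with GSK343. With CPI-169, VAT1 passed and RPL27 did not (limma, Benjamini-Hochberg adjusted p = 0.0114 and 0.0591), and neither passed with GSK343. DDX24 passed with neither compound. FAM76A, beyond IFI6, was higher by 0.47 with CPI-169 and fell by 0.53 with GSK343, and RIF1, beyond NMI, fell by 0.58 with CPI-169 and fell by 0.63 with GSK343. Without GSK343 replicate 1 and replicate 2, VAT1 was at 0.11 and −0.35.

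The genes most like each of the 8 over the 12 libraries were taken as those with the smallest root mean square difference of log2(FPKM + 1) after each gene was centred on its own mean. XAF1 (0.314), the nucleotide kinase gene CMPK2 (0.585) and OASL (0.616) were nearest to IFI6. USP41 (0.547), USP18, which removes ISG15 from proteins (0.640), and IFIT2 (0.682) were nearest to IFI27; USP41 is a near-identical copy of USP18, so reads may be split between them. ISG15 (0.443), OAS1 (0.538) and CMPK2 (0.612) were nearest to IFI44L, and LAMP3 (0.903), IFI44L (0.951) and MYBPH (0.969) to IFI44. UBE2L6, the conjugating enzyme of ISG15 (0.178), TCEAL3 (0.257) and CASP4 (0.314) were nearest to NMI. For IFI35 and IFI27L2 the nearest were not genes of the interferon list: EBF4 (0.382), RP1-152L7.5 (0.392) and AC092580.4 (0.424) for IFI35, and RGS10 (0.137), RCN2 (0.154) and AC007387.2 (0.218) for IFI27L2. IFI27L1 was not ranked because its group means span only 1.13 on the log2 scale. Between the 8 genes the smallest distances were 0.603 for IFI27L2 and NMI, 0.736 for IFI35 and NMI and 0.844 for IFI27 and IFI35.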

How the data were processed

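The authors deposited 1 table of FPKM values for 63129 gene IDs in 12 libraries; TopHat 1.4.1, Cufflinks and the build hg19 are named in the submitters' processing notes, per the labels. Not given in the sources used here were the annotation release, the kit and the handling of strand, so overlapping genes are uncertain. FPKM divides by length and mapped fragments, and an abundant transcript lowers all others in its library: of the FPKM sum, Pfeiffer libraries had 6.35% to 8.52% and the other lines 1.93% to 2.43% in their 10 highest genes. Absolute depth is unknown; from the lowest steps, depth relative to the first DMSO library of a line spanned 0.647 to 1 (KARPAS-422), 1 to 1.33 (Pfeiffer) and 0.773 to 1 (RL), and no counting interval is given. Which libraries were lysed in Trizol and which in RLT buffer is not stated. The treated KARPAS-422 labels spell the compound CPI524169 in one field, while titles and protocol have CPI-169.

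Columns were matched to samples by title, and groups came from the labels. Values were taken as log2(FPKM + 1) where 2 or more libraries had 1 FPKM or more (18731 genes; 77 with missing values left out), a scale that understates differences of low genes. A limma fit (version 3.58.1, R 4.3.3) held all 5 groups, with an intensity trend, 7 residual degrees of freedom and 3.45 prior ones, and p-values were adjusted by Benjamini-Hochberg over all tested genes of each of 6 contrasts with a threshold of 0.05. The fit was tested on simulated data. Alternatives were pseudocount, filter, scaling, lines fitted alone, a replicate block and each library left out. Promoter sequences are those of RefSeq on GRCh38.p14; hg19 loci come from the FPKM table, and no position was converted between builds.

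The 8 genes and all lists were chosen with earlier results of these data known. Named genes are the 8, EZH2, STAT and IRF factors, the 3 highest and 3 lowest of the interferon-stimulated list per treatment, the nearest tested neighbours and overlapping genes of each locus, and the 3 genes nearest in pattern to each member whose group means span at least 2 on the log2 scale. Cell type markers were named beside their sums. Some genes that the rule takes are not reported here.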

Additional observations from a re-analysis of the deposited data

Results flagged for a closer look

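The response to CPI-169 in KARPAS-422 differed from the response to GSK343 in Pfeiffer, by a test of that difference (limma with Benjamini-Hochberg adjustment), for 5 of the 8 genes: by 2.28 for IFI6, 1.69 for IFI27L1, 1.07 for IFI27L2, 1.58 for IFI35 and 1.43 for NMI on the log2(FPKM + 1) scale, each larger in KARPAS-422. Of all tested genes, 42.6% passed this comparison and 23.8% passed it in that direction. In IFI27L1 the directions were opposite, with every CPI-169 library above every KARPAS-422 DMSO library and both GSK343 libraries below both Pfeiffer DMSO libraries. Line, compound and library series cannot be told apart in this difference.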

How the results depend on the processing

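Depth limits the lowest levels, and groups of 2 or 3 libraries limit precision; IFI44 and IFI44L lie near the bottom of the scale in Pfeiffer DMSO, with fragment numbers unknown. In KARPAS-422 all 8 genes kept their direction and call under all 22 alternatives.

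Counts moved by over 1.5 times as follows. Leaving out a Pfeiffer or RL library leaves 1 in its group, and such counts do not measure scatter within that group. With no filter, 2 of the 8 genes were higher with GSK343 and 1 was higher in RL than in Pfeiffer. With the lines fitted alone, GSK343 gave 0 higher and 0 lower among the 8 genes, the interferon-stimulated genes and all tested genes (limma; 1751 higher and 2883 lower of all genes at an unadjusted p under 0.05), and RL had 20 interferon-stimulated genes lower than Pfeiffer. With at least 5 FPKM, only 13112 genes were tested and 4743 of them were lower in RL than in Pfeiffer, against 7252 of 18731. Leaving out 1 library at a time, GSK343 gave 1 to 5 of the 8 genes higher, 18 to 54 higher and 0 to 2 lower interferon-stimulated genes, and 1207 to 4458 higher and 1796 to 4223 lower genes. The difference of responses then had 4 to 8 higher and 0 to 2 lower of the 8, with 23 to 46 higher and 0 to 13 lower interferon-stimulated genes. RL against Pfeiffer then had 0 to 2 of the 8 higher and 13 to 30 higher interferon-stimulated genes. The replicate block gave 1 lower interferon-stimulated gene in the difference of responses, against 2 without it.

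Directions reversed only for values that had not passed in the fit as reported. The difference of responses was −1.19 for IFI44 and −1.10 for IFI44L with a pseudocount of 0.1, and −0.18 for IFI44 with 0.5. Over the libraries left out in turn it ran from −0.16 to 3.35 for IFI27, −1.14 to 1.84 for IFI44 and −0.83 to 1.94 for IFI44L, the lowest without GSK343 replicate 2 and the highest without GSK343 replicate 1. IFI27L2 with GSK343 was 0.018 with quantile normalization. For RL against Pfeiffer, IFI27 was 0.42 with quantile normalization, 0.00016 with median scaling and −0.15 to 0.051 with 1 library left out, and IFI27L1 was −0.050 with quantile normalization and −0.080 to 0.095 with 1 library left out. Quantile normalization moved the median of all genes to 0.13 in RL against Pfeiffer and to 0.10 in KARPAS-422 against Pfeiffer. Calls gained under an alternative were IFI27 and NMI with GSK343 (1 each), IFI27 in RL against KARPAS-422 (3), and IFI35 (4) and IFI27 (3) in KARPAS-422 against Pfeiffer, all in the reported direction, and IFI6 in RL against Pfeiffer (2). Some of these gained calls came from fits with 1 GSK343 library. In the difference of responses, IFI27, IFI44 and IFI44L had opposite signs without GSK343 replicate 1 and without replicate 2. The causes were not tested.

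Whether replicate numbers pair the libraries could not be decided. Same-numbered KARPAS-422 deviations correlated at −0.152, −0.252 and 0.156, which differ in sign, and the 2 Pfeiffer pairs at 0.140. Those 2 pairs share their value by construction, as deviations from a mean of 2 libraries mirror each other. With the replicate number as a block, the 8 genes kept every call in both treatments and in the difference of responses, 8 higher with CPI-169 and 4 higher and 1 lower with GSK343.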
